A study of Mus musculus with 9 samples.

Results

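The 10 genes described here encode enzymes that make, activate or inactivate steroid hormones: Hsd3b2, Hsd3b3, Hsd3b5, Hsd17b2, Hsd17b13, Hsd11b1, Cyp17a1, Akr1c6, Akr1d1 and Srd5a1. They were taken by gene name from a table of 56748 genes, and all 10 were found. The table held counts from bulk RNA sequencing of mouse liver in 3 groups of 3 livers. C57BL/6J mice labelled DSS received dextran sulfate sodium, a polymer that injures the gut lining, in 3 cycles of 1.8% in drinking water, each followed by recovery. Mice labelled Indirubin received the same DSS cycles plus the plant dye indirubin at 1 g/kg per day by mouth in water. The volume given by mouth was 200 µL in all 3 groups. Control mice are labelled as given water. The series text describes colitis for the mice as a whole, so the statement that Control mice had no DSS rests on that label. Wild-type mice were bought at 7 to 8 weeks of age. No group had indirubin without DSS, and sex and litter were not given in the sources used here.

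Steroid hormones are built in the adrenal cortex and the gonads, and the liver is the main site where they are reduced, oxidised and conjugated before excretion. Short-chain dehydrogenases of the HSD families interconvert hydroxyl and keto groups at fixed positions of the steroid, and so switch androgens, oestrogens and glucocorticoids between active and weak forms. Steroid 5α- and 5β-reductases and aldo-keto reductases of the AKR1C family carry the reductive arm of clearance. In rodents many of these enzymes are expressed at different levels in male and female liver, under control of the pattern of growth hormone release.

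The libraries held between 6514863 and 7944684 counts, of which genes of the mitochondrial genome took 71.6% to 91.3%, so that 569044 to 2132208 counts were left for nuclear genes. Levels are given as normalized CPM, which are counts scaled to library size with 1 set of trimmed mean (TMM) factors over the 9 libraries. Levels compared between genes are divided by gene length as well (RPKM). A count of 3, used here as the floor below which a value of 0 cannot be told from a low one, was worth 0.246 to 0.731 CPM. The hepatocyte list was detected in full, 12 of 12 genes, in each of the 9 libraries. Its summed level ran from 15751 to 24767 CPM in Control, from 14110 to 30994 CPM in DSS and from 14742 to 18454 CPM in Indirubin. Within this sum the genes went both ways: in Indirubin against Control 7 of the 12 were below 0 and 4 (Apoa1, Apoa2, Ttr and Serpina1a) were lower without overlap, with log2 fold changes from −1.81 for Apoa2 to −0.91 for Serpina1a and 0 called (smallest adjusted p = 0.151, edgeR). Trf alone made up 6759 and 7290 CPM of the sum in Indirubin-2 and Indirubin-3, against 2522 CPM in Indirubin-1 and 8075 CPM in DSS-3. The part of these changes in the results below was not tested. The Y-linked gene Ddx3y had 18 to 155 counts in the 9 libraries, and Xist had 0 counts in 8 of them and 8 counts in Indirubin-2. In bulk tissue, fewer cells of a type and less RNA per cell cannot be told apart.

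The 3 Indirubin libraries were not alike. The summed level of 12 pancreatic acinar genes was 10.3 CPM in Indirubin-1, 1395 CPM in Indirubin-2 and 1389 CPM in Indirubin-3, against 8.63 to 22.2 CPM in Control and 0 to 3.08 CPM in DSS. All 12 acinar genes were detected in Indirubin-2 and Indirubin-3, and 4 of 12 in Indirubin-1. Neutrophil genes, a list of 10, summed to 29.6, 252 and 92.8 CPM in Indirubin-1, -2 and -3, against 1.17 to 3.65 CPM in Control and 11.5 to 19.8 CPM in DSS. Kupffer cell and macrophage genes, a list of 13, summed to 177, 280 and 253 CPM in the same 3 libraries, against 114 to 195 CPM in Control and 156 to 178 CPM in DSS. The part of these cells in the results below was not tested. For the 10 enzymes, the comparisons that use the Indirubin group are given with its 3 libraries and again without Indirubin-1, and other named genes with all 3 libraries only. Indirubin-1 was singled out after its values, those of the 10 enzymes included, were seen to differ from the other two, so a p-value without it describes the libraries that remain and is no independent test of the groups. The labels give the 3 mice the same treatment, and whether all 3 were dosed and dissected alike was not given in the sources used here, so what the mean of the 3 stands for is uncertain.

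The 4 genes that lay furthest below the Control mean in Indirubin-2 and Indirubin-3 are shown first with the sequence upstream of their start site. Indirubin is a ligand of the aryl hydrocarbon receptor (AhR), and the core of its binding site, GCGTG, was among the motifs searched. The 250 bases before the start are from RefSeq on GRCm38.p6, an older build than the GRCm39 named in the submitters' notes for the files. They are shown 5′ to 3′ on the strand of the gene, in lower case, with capitals marking GCGTG in Hsd3b5 and Srd5a1 and TATAAA in Akr1c6. Hsd3b5 lies at chr3:98645535-98645784 (minus strand), 1 of the 2 windows of Hsd3b3 at chr3:98763129-98763378 (minus strand), Akr1c6 at chr13:4434093-4434342 (plus strand) and Srd5a1 at chr13:69611464-69611713 (minus strand). The RefSeq start of Hsd3b5 lies 15282 bases upstream of the nearest start in GENCODE M21, an annotation of the same build, so its window is that of the RefSeq start alone. For Srd5a1 the distance was 21 bases, for Akr1c6 13 and for this window of Hsd3b3 1.
Hsd3b5: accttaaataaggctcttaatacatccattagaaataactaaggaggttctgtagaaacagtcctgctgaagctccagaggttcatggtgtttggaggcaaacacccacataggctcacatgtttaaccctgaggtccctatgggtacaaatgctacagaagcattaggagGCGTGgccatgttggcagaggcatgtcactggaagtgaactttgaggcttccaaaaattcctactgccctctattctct
Hsd3b3: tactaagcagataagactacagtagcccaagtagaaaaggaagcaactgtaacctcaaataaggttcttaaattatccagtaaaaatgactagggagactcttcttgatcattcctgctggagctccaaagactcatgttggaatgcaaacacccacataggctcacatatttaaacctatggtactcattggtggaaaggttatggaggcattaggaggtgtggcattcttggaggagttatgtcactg
Akr1c6: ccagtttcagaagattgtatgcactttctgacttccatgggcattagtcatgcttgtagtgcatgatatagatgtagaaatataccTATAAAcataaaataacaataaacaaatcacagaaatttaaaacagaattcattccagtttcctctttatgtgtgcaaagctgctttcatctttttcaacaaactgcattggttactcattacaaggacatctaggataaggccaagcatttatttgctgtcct
Srd5a1: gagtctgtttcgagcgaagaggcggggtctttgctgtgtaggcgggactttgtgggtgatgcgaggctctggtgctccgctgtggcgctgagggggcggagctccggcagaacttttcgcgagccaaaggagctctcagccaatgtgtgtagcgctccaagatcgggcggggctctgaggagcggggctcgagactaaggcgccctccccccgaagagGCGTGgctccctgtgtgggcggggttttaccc

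A window was found for 8 of the 10 genes, and Cyp17a1 and Hsd17b2 had none. The RefSeq start of Hsd11b1 lay 269 bases downstream of the nearest GENCODE start. Searched on both strands, GCGTG was in the windows of 3 of these 8 genes (Hsd3b5 at −79, Srd5a1 at −32 and Hsd11b1 at −111) and in 28.2% of all 32851 windows. The nuclear receptor half-site AGGTCA was in 2 of 8 (Akr1d1 at −232 and −210, Hsd17b13 at −96) against 14% of all windows, and AGAACA, the half-site of glucocorticoid and androgen receptors, was in Hsd3b2 alone at −246, against 16.1%. TATAAA was in Akr1c6 at −164 against 12.4% of all windows, and the STAT5 core TTCNNNGAA was in none of the 8 against 7.02%. The Hsd3b5 window was 75.9% identical to that of Hsd3b3 shown above over 199 aligned bases. Within the GCGTG match of Hsd3b5 the aligned Hsd3b3 base differed by C173T, counted from 1 at the 5′ end of the Hsd3b5 window. These matches are letters in a window and not measured binding.

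**Figure D1:**
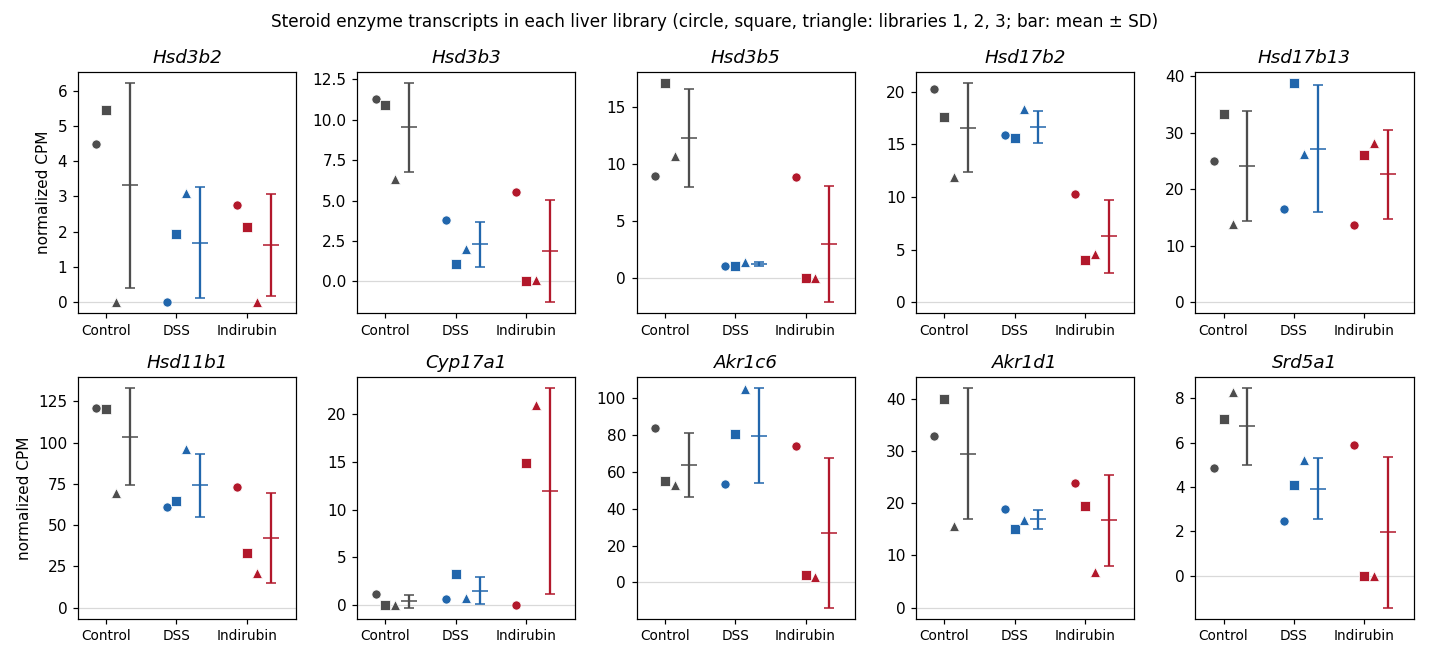
Normalized CPM of the 10 genes in each liver library, by group, with the group mean ± SD (n = 3) as a bar beside the points. Hsd3b5 sat between 1.06 and 1.37 CPM in the 3 DSS libraries and between 8.95 and 17.1 CPM in the 3 Control libraries, and in 6 of the panels Indirubin-2 and Indirubin-3 lay below every Control and DSS library.

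The 3β-hydroxysteroid dehydrogenases form a cluster on chromosome 3 (GRCm39): Hsd3b5 at 98525950 to 98537568, Hsd3b2 at 98616571 to 98631859 and Hsd3b3 at 98648839 to 98670443, all on the minus strand. Hsd3b2 and Hsd3b3 belong to the branch that oxidises and isomerises pregnenolone and dehydroepiandrosterone. Hsd3b5 is a 3-ketosteroid reductase found chiefly in male mouse liver.

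Hsd3b5 fell in DSS livers. Its counts were 46, 97 and 44 in Control-1, -2 and -3, 9, 6 and 15 in DSS-1, -2 and -3, and 48, 0 and 0 in Indirubin-1, -2 and -3. Each Control library was above each DSS library. Its normalized level was 12.3 ± 4.28 CPM in Control and 1.17 ± 0.177 CPM in DSS (SD, n = 3), a ratio of 10.5. The log2 fold change of DSS against Control was −3.32 (SE 0.55, adjusted p = 0.0142, edgeR quasi-likelihood fit, adjusted by Benjamini-Hochberg). It was the only one of the 9 genes tested in this comparison past an adjusted p of 0.05, a threshold passed by 0.708% of all 7482 genes tested and in the lower direction by 0.495%. Hsd3b5 passed the filter on low counts through Control, where it is high, and DSS-1 and DSS-2 were too low for it. Its call beside these shares is therefore no independent support. Across 13 alternative fits the log2 fold change stayed between −3.54 and −2.64. The adjusted p missed 0.05 in 5 of them: 0.211 with library size alone as the scale, 0.518 with all 9 libraries in 1 fit, 0.0767 without DSS-3, 0.214 without Control-2 and 0.0654 without Control-3.

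Among the Indirubin livers, Hsd3b5 stood at 8.81 CPM in Indirubin-1, close to the lowest Control library at 8.95 CPM, and at 0 in the other two. The comparison with DSS was not tested because the gene did not pass the filter on low counts. Against Control, the log2 fold change was −2.19 (SE 1.27, adjusted p = 0.493), and the groups did not overlap. Without Indirubin-1, all remaining Indirubin libraries were at 0, and the Control mean was at least 48.5-fold higher than the mean floor of 3 counts per library. Hsd3b5 then passed the filter only through Control, where it is high, so this difference is given with no test.

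Hsd3b3 ran in the same direction without passing the test. Its counts were 58, 62 and 26 in Control, 32, 6 and 22 in DSS, and 30, 0 and 1 in Indirubin. The levels were 9.51 ± 2.76, 2.29 ± 1.39 and 1.86 ± 3.16 CPM (SD, n = 3), and neither the DSS nor the Indirubin libraries overlapped with Control. Log2 fold changes were −1.98 for DSS against Control (SE 0.61, adjusted p = 0.283), −0.35 for Indirubin against DSS (SE 1.51, adjusted p = 0.988) and −2.50 for Indirubin against Control (SE 1.19, adjusted p = 0.382), all by edgeR. Without Indirubin-1, on Indirubin counts of 0 and 1, the Control mean was at least 37.7-fold and the DSS mean at least 9.07-fold higher than the floor. Hsd3b3 then passed the filter only through Control or DSS, where it is high, so these differences are given with no test.

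Hsd3b2 gave no ordered pattern. Its counts were 23, 31 and 0 in Control, 0, 11 and 34 in DSS, and 15, 26 and 0 in Indirubin, with 1 library at 0 in every group. Log2 fold changes were −0.93, −0.07 and −1.03 for DSS against Control, Indirubin against DSS and Indirubin against Control, with SEs of 1.39, 1.61 and 1.35, so that differences of several fold could not be detected at this depth. Without Indirubin-1 the log2 fold changes were −0.77 against DSS (adjusted p = 0.999) and −1.72 against Control (adjusted p = 0.695, edgeR). The counts of this cluster carry a further limit. In GENCODE M21 transcripts, 14.9% of the 100-base words of Hsd3b3 and 7.09% of those of Hsd3b2 also occurred in other genes, mostly in each other, and 7.79% of those of Hsd3b5 occurred in Gm10681. How reads with several matches were counted was not given in the sources used here. The other genes of the cluster added little: Hsd3b4 and Hsd3b6 had 0 counts in the 9 libraries, and Hsd3b1 had 6 counts in Indirubin-2 and 0 elsewhere.

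Hsd17b2 and Hsd17b13 belong to the 17β-hydroxysteroid dehydrogenases. Hsd17b2 (chromosome 8, 118428643 to 118485766, plus strand, GRCm39) oxidises oestradiol and testosterone to their weaker 17-keto forms. Hsd17b13 (chromosome 5, 104103306 to 104125276, minus strand) is a lipid droplet protein of hepatocytes.

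Hsd17b2 was at one level in Control and DSS and lower in Indirubin. Its counts were 104, 100 and 49 in Control, 134, 88 and 201 in DSS, and 56, 49 and 53 in Indirubin. The normalized values were 20.2, 17.6 and 11.9 CPM, then 15.9, 15.6 and 18.4 CPM, then 10.3, 4.02 and 4.58 CPM. All 3 Indirubin libraries, Indirubin-1 included, lay below all 6 Control and DSS libraries, and it was 1 of 2 genes of the 10 for which Indirubin-1 did so. The log2 fold change was −1.42 against DSS (SE 0.47, adjusted p = 0.483) and −1.40 against Control (SE 0.46, adjusted p = 0.189), so neither passed the edgeR test over all genes. The smallest two-sided p that an exact permutation test of 3 against 3 libraries can give is 0.1. Without Indirubin-1 the log2 fold changes were −2.05 against DSS (adjusted p = 0.0563) and −2.06 against Control (adjusted p = 0.0186). DSS and Control differed by 0.04 (SE 0.35).

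Hsd17b13 did not separate the groups. Its levels were 24.9, 33.3 and 13.9 CPM in Control, 16.5, 38.8 and 26.2 CPM in DSS, and 13.6, 26.1 and 28.2 CPM in Indirubin. Log2 fold changes were 0.23 (SE 0.40), −0.26 (SE 0.45) and −0.05 (SE 0.43) for DSS against Control, Indirubin against DSS and Indirubin against Control. Without Indirubin-1 they were −0.11 against DSS (adjusted p = 0.999) and 0.07 against Control (adjusted p = 0.966, edgeR), the latter with its sign turned. In Indirubin-2 and Indirubin-3, where 6 of the other genes were below every Control and DSS library, Hsd17b13 was within their range.

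Hsd11b1 (chromosome 1, 192903942 to 192946383, minus strand, GRCm39) regenerates active glucocorticoid from its 11-keto form in the lumen of the endoplasmic reticulum. Its counts were 622, 683 and 286 in Control, 517, 366 and 1051 in DSS, and 397, 403 and 240 in Indirubin. The levels were 121, 120 and 69.7 CPM in Control, 61.3, 64.9 and 96.1 CPM in DSS, and 72.9, 33.0 and 20.7 CPM in Indirubin. The Indirubin range overlapped with both other groups through Indirubin-1 alone. Log2 fold changes were −0.45 for DSS against Control (SE 0.31, adjusted p = 0.906), −0.81 for Indirubin against DSS (SE 0.48, adjusted p = 0.797) and −1.28 for Indirubin against Control (SE 0.48, adjusted p = 0.254), by edgeR. Without Indirubin-1 the change from Control was −2.05 (adjusted p = 0.00726) and that from DSS −1.57 (adjusted p = 0.102, edgeR). H6pd, which supplies this enzyme with NADPH, overlapped between groups in both DSS comparisons, with log2 fold changes of −0.34 for DSS against Control (adjusted p = 0.984) and −0.18 for Indirubin against DSS (adjusted p = 0.981), both by edgeR.

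Cyp17a1 (chromosome 19, 46655604 to 46661611, minus strand, GRCm39) is the 17α-hydroxylase and 17,20-lyase that opens the route to glucocorticoid and androgen precursors in gland cells. Its transcript was low in 7 libraries, at 18 counts or fewer, and clearly present in 2. The counts were 6, 0 and 0 in Control, 5, 18 and 8 in DSS, and 0, 182 and 243 in Indirubin. In normalized values Indirubin-2 and Indirubin-3 stood at 14.9 and 21.0 CPM, and the highest of the other 7 libraries, DSS-2, at 3.19 CPM. Indirubin-1 had none, so the groups overlapped. Indirubin-2 and Indirubin-3 were also the libraries with the high acinar sums and the highest neutrophil sums, and the part of those cells in this value was not tested.

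The log2 fold change of Cyp17a1 for Indirubin against DSS was 3.06 (SE 1.17, adjusted p = 0.543), not past the edgeR test. Without Indirubin-1 it was 3.53, and with no filter on low counts and all 3 Indirubin libraries it was 2.93 (adjusted p = 0.00596, edgeR). The gene did not pass the filter in the comparisons of the full groups with Control. Without Indirubin-1 it passed, against DSS and against Control, only through Indirubin-2 and Indirubin-3, where it is high. Its log2 fold changes of 3.53 against DSS and 5.32 against Control are therefore given with no test.

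Genes that mark adrenal and gonadal steroid cells were at or near 0 in every library. Of 10 such markers, Cyp11b1, Cyp11b2, Cyp21a1, Nr5a1, Mc2r, Lhcgr and Insl3 had 0 counts in all 9 libraries, and the summed level of the list ran from 0 to 2.51 CPM. Star, the cholesterol carrier of the first step, had 11 counts in Indirubin-2, 29 in Indirubin-3, 0 in Indirubin-1, and at most 7 elsewhere. Cyp11a1, which makes pregnenolone, had 8 counts in Indirubin-2 and 0 in the other 8 libraries. Por, the electron donor of microsomal P450 enzymes, was at 8.56, 14.3 and 1.95 CPM in Control, 11.7, 8.51 and 15.8 CPM in DSS, and 8.45, 17.9 and 54.3 CPM in Indirubin, so that Indirubin-3 alone stood far above the rest, with a log2 fold change of 1.16 for Indirubin against DSS (SE 0.59, adjusted p = 0.723, edgeR).

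**Figure D2:**
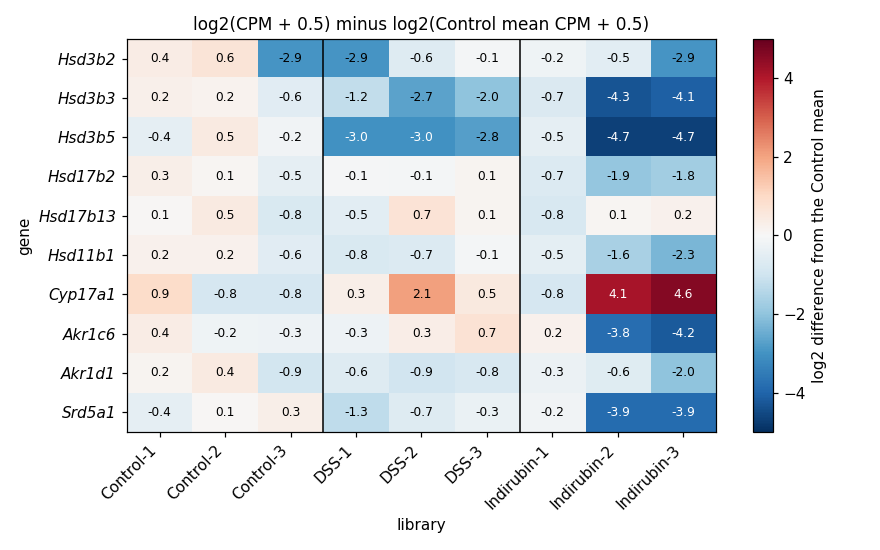
Difference of each library from the Control mean, as log2(CPM + 0.5), for the 10 genes (rows) and 9 libraries (columns), blue below and red above. Indirubin-2 and Indirubin-3 hold the deepest blue in Hsd3b5, Hsd3b3, Srd5a1 and Akr1c6 and the only deep red, in Cyp17a1, and Indirubin-1 stays within 1 unit of the Control mean in all 10 genes.

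Akr1c6 (chromosome 13, 4484305 to 4507876, plus strand, GRCm39) is the hepatic AKR1C enzyme that acts on the 17-position of oestrogens and androgens. It had the widest range within a group of the 10 genes, 70.8 CPM among the Indirubin livers. Its counts were 430, 312 and 217 in Control, 449, 455 and 1148 in DSS, and 402, 50 and 35 in Indirubin. The levels were 83.7, 55.0 and 52.9 CPM in Control, 53.2, 80.6 and 105 CPM in DSS, and 73.8, 4.10 and 3.02 CPM in Indirubin. Indirubin-1 sat inside the Control and DSS ranges at 18.0 times the level of Indirubin-2 and 24.4 times that of Indirubin-3. Nuclear counts were 701804, 1910420 and 1771035 in Indirubin-1, -2 and -3 and 2132208 in DSS-3, and the part of depth in this difference was not tested.

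Over all 3 Indirubin libraries the log2 fold change of Akr1c6 was −1.57 against DSS (SE 0.93, adjusted p = 0.797) and −1.25 against Control (SE 0.91, adjusted p = 0.608), by edgeR. Without Indirubin-1 it was −4.58 against DSS (adjusted p = 4.73e-04) and −4.27 against Control (adjusted p = 1.30e-04). DSS and Control differed by 0.35 (SE 0.33, adjusted p = 0.984). None of the 100-base words of the Akr1c6 transcript occurred in another gene.

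Akr1d1 (chromosome 6, 37507108 to 37545750, plus strand, GRCm39), the steroid 5β-reductase that also serves bile acid synthesis, was at 32.9, 40.2 and 15.6 CPM in Control, 18.8, 15.1 and 16.9 CPM in DSS, and 23.9, 19.4 and 6.91 CPM in Indirubin. Control-3 lay inside the DSS range and the other 2 Control libraries above it. The log2 fold change for DSS against Control was −0.75 (SE 0.37, adjusted p = 0.721), and Indirubin differed from DSS by −0.02 (SE 0.47, adjusted p = 0.995), by edgeR. Without Indirubin-1 the log2 fold changes were −0.47 against DSS (adjusted p = 0.962) and −1.27 against Control (adjusted p = 0.206, edgeR).

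Srd5a1 (chromosome 13, 69721568 to 69759561, minus strand, GRCm39), the steroid 5α-reductase of liver, had counts of 25, 40 and 34 in Control, 21, 23 and 57 in DSS, and 32, 0 and 0 in Indirubin. Indirubin-1 was at 5.88 CPM, within the Control range of 4.86 to 8.28 CPM. Log2 fold changes were −0.75 for DSS against Control (SE 0.57, adjusted p = 0.925), −1.07 for Indirubin against DSS (SE 1.46, adjusted p = 0.972) and −1.90 for Indirubin against Control (SE 1.32, adjusted p = 0.583). Without Indirubin-1, the Control mean was at least 26.7-fold and the DSS mean at least 15.5-fold higher than the floor. Srd5a1 then passed the filter only through Control or DSS, where it is high, so these differences are given with no test. Of the 100-base words of its transcript, 14.9% also occurred in Gm17108.

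**Figure D3:**
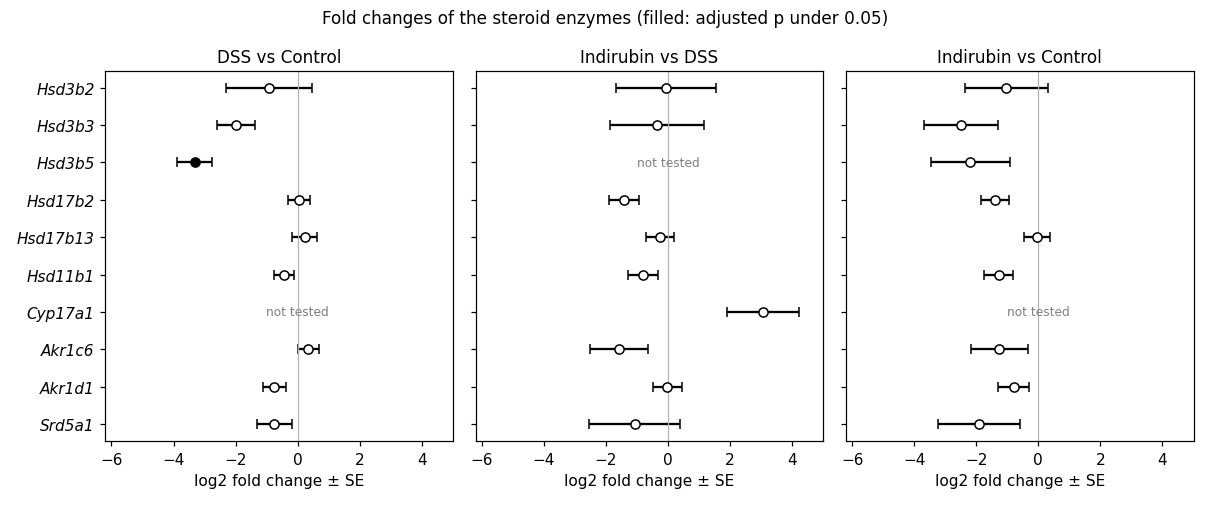
Log2 fold change ± SE of the 10 genes in the 3 comparisons, each fitted on its own 6 libraries. The one filled point, past an adjusted p of 0.05, is Hsd3b5 at −3.32 in DSS against Control, and genes that did not pass the filter on low counts are marked as not tested.

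In each comparison 9 of the 10 genes passed the filter on low counts, and the mean of the gene that did not was higher in the first-named group. This was Cyp17a1 in DSS against Control (a ratio of mean CPM of 3.87) and in Indirubin against Control (30.8), and Hsd3b5 in Indirubin against DSS (2.52), each with overlap between the groups. The counts below leave that gene out and so do not cover all 10. Of the 9 tested, 6, 8 and 9 lay below the median of all genes in DSS against Control, Indirubin against DSS and Indirubin against Control on each of 3 scales tried. With library size alone as the scale, which raised the median of all genes to 0.70, 0.43 and 1.11, the numbers below 0 itself were 5, 5 and 7. In DSS against Control 6 of the 9 genes tested had a log2 fold change below 0, against 49.4% of all genes, with a median of −0.75 against 0.01. Of the 9, 2 had an unadjusted p under 0.05 (Hsd3b5 and Hsd3b3), as did 7.52% of all genes. For these 2 the groups did not overlap, DSS being lower, as for 8.54% of all genes. Both passed the filter through Control, where they are high, so these shares are no independent support. In Indirubin against DSS the test called 0 of 9 and 0 of all 9117 genes by edgeR, a share of 0%, and 2 of the 9 had an unadjusted p under 0.05 (Cyp17a1 higher, Hsd17b2 lower), as did 7.68% of all genes. DESeq2 called 0 of the 9 as well. In that comparison 8 of 9 were below 0, against 43.2% of all genes, and 1 (Hsd17b2) did not overlap, lower, against 5.92%.

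In Indirubin against Control edgeR called 0 of 9, against 0.236% of all 8059 genes. Of the 9, 2 had an unadjusted p under 0.05 (Hsd17b2 and Hsd11b1), as did 13.8% of all genes, and DESeq2 called 0 of the 8 to which it gave an adjusted p. The 9 tested were below 0, against 44.5% of all genes, while the untested Cyp17a1 had a log2 fold change of 4.93 with no filter on low counts (adjusted p = 3.78e-08, edgeR) and 4.86 with all 9 libraries in 1 fit (adjusted p = 0.139). Of the 9, 3 (Hsd3b3, Hsd3b5 and Hsd17b2) did not overlap, lower, against 9.32%. Hsd3b3 and Hsd3b5 passed the filter through Control, where they are high. The median was −1.28 against 0.13 for all genes. The 3 comparisons share their groups in pairs and are not independent of each other.

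With Indirubin-1 left out, the same fit put 7 of the 10 genes past the threshold against Control, 6 lower (Hsd3b3, Hsd3b5, Hsd17b2, Hsd11b1, Akr1c6 and Srd5a1) and 1 higher (Cyp17a1), where 3.29% of all 9721 genes were past it lower and 1.49% higher. In Indirubin-1 itself, Hsd3b3, Hsd3b5 and Hsd17b2 were below every Control library, at 5.51, 8.81 and 10.3 CPM. There Hsd11b1, Akr1c6, Srd5a1 and Cyp17a1 were within the Control range. Of the 7, Hsd3b3, Hsd3b5 and Srd5a1 had Indirubin counts of 0 or 1 and passed the filter only through Control, and Cyp17a1 only through Indirubin, so these 4 had to differ and the count of 7 is no support for a change in the genes as a set. Against DSS the same fit put 2 of 9 past the threshold, Akr1c6 lower and Cyp17a1 higher, where 0.703% of all 10817 genes were called lower and 0.536% higher. Cyp17a1 again passed the filter only through Indirubin, where it is high, so its call here is no support either. Leaving out Indirubin-2 or Indirubin-3 instead gave 0 calls among the 10 genes in both comparisons. Library by library, 2 of the 10 genes in Indirubin-1 (Hsd17b2 and Hsd17b13) lay below all 6 Control and DSS libraries, a place taken by 10.4% of 9713 genes. In Indirubin-2 it was 6 of 10 against 10.2%, and in Indirubin-3 7 of 10 against 11.7%, with Akr1d1 as the added gene. Cyp17a1 lay above all 6 in Indirubin-2 and Indirubin-3, as did 19.5% and 20.5% of all genes.

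**Figure D4:**
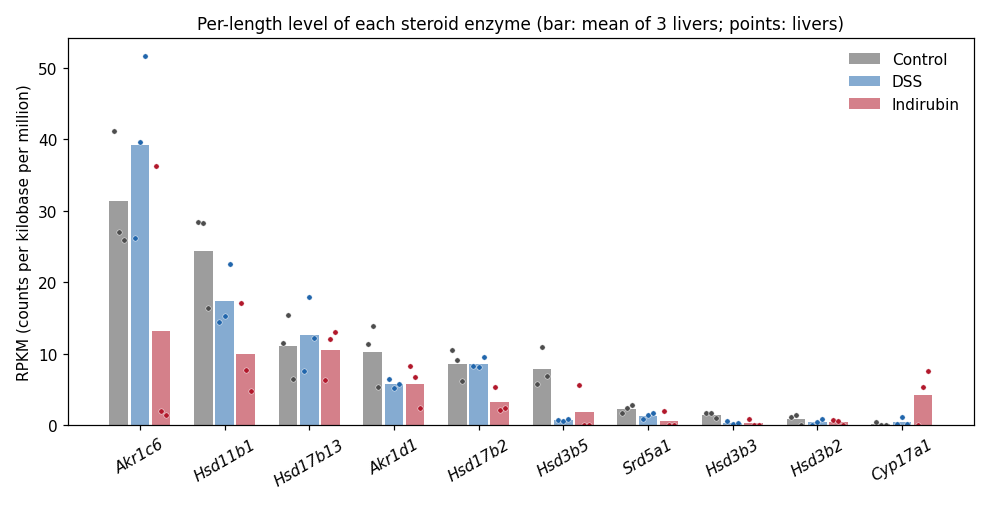
Mean level per gene length (RPKM) of the 10 genes in each group, ordered by the Control mean, with each liver as a point. Akr1c6 had the highest mean in Control and DSS, at 31.4 and 39.2 RPKM, while in Indirubin its points lay at 36.3, 2.02 and 1.49 RPKM, and Cyp17a1 was last in Control at 0.141 RPKM.

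Per length, the Control order began with Akr1c6 at 31.4 ± 8.47 RPKM and Hsd11b1 at 24.4 ± 6.93 RPKM (SD, n = 3), which did not differ beyond their spread. Hsd17b13, Akr1d1, Hsd17b2 and Hsd3b5 followed between 11.1 and 7.91 RPKM, neighbours within one another's SD. Srd5a1 was at 2.31 ± 0.595, Hsd3b3 at 1.49 ± 0.432, Hsd3b2 at 0.896 ± 0.788 and Cyp17a1 at 0.141 ± 0.243 RPKM. In DSS the first 3 places were the same, and Hsd3b5 was at 0.753 ± 0.114 RPKM, at rank 7 where Control had it at rank 6. In Indirubin the SDs of Akr1c6, Hsd3b5, Hsd3b3 and Srd5a1 exceeded their means, so no order between neighbours could be read there for these 4 genes.

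Hsd3b5 is one of a larger set of genes with higher expression in male than in female liver. A list of 14 other such genes was drawn up with earlier results of these data known, so its counts are no independent support. Of the 14, 12 were tested in DSS against Control, and all 12 had a log2 fold change below 0. The edgeR test called 3 of them (Selenbp2, Elovl3 and Mup20), where 0.495% of all genes were called lower. The median of the 12 was −1.84 against 0.01 for all genes. Of the 3 calls, those of Selenbp2 and Elovl3 held in 12 of 13 and 12 of 14 alternative fits and that of Mup20 in 4 of 14, and all 12 stayed below 0 on the 3 scales tried. The sum of the 14 was 2361 to 2702 CPM in Control, 382 to 1425 CPM in DSS, and 784, 206 and 455 CPM in Indirubin-1, -2 and -3. Elovl3, an elongase of very long chain fatty acids, was at 104, 121 and 113 CPM in Control, 8.65, 19.8 and 3.29 CPM in DSS, and 30.7, 0 and 1.30 CPM in Indirubin. Against Control, 12 of 12 tested were also below 0 in Indirubin, where 44.5% of all genes were, with 0 calls by edgeR, 9 at an unadjusted p under 0.05 (13.8% of all genes), and a median of −2.65 against 0.13. With library size alone as the scale, 10 of the 12 were below 0 and all 12 below the median of all genes. In Indirubin against DSS 10 were tested and 8 were below 0, against 43.2% of all genes, with 0 calls by edgeR. Of 15 genes with higher expression in female liver, 1 was tested, so that list could not be read at this depth.

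Of 76 other genes of steroid metabolism, 72 were in the table by symbol and 34, 37 and 35 were tested in DSS against Control, Indirubin against DSS and Indirubin against Control. The test called 1 of them lower in the first comparison and 0 in the other two by edgeR, where 0.495% of all genes were called lower in the first. At an unadjusted p under 0.05 the counts were 3, 2 and 4, beside 7.52%, 7.68% and 13.8% of all genes. The medians were −0.05, −0.16 and −0.01, against 0.01, 0.15 and 0.13 for all genes.

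The one call was Sult2a8, a hepatic sulfotransferase that acts on steroids and bile acids. Its counts were 447, 509 and 303 in Control, 184, 162 and 309 in DSS, and 314, 26 and 36 in Indirubin. In normalized values Control ran from 73.8 to 89.7 CPM and DSS from 21.8 to 28.7 CPM without overlap, and the log2 fold change was −1.63 (SE 0.29, adjusted p = 0.0222, edgeR). The call held in 5 of 14 alternative fits and was lost without any 1 of the 6 libraries (adjusted p from 0.0545 without DSS-1 to 0.157 without Control-1, edgeR), while the log2 fold change stayed between −1.75 and −0.96. In Indirubin the values were 57.7, 2.13 and 3.11 CPM, so that here too Indirubin-1 was far above the other two. Sult1e1, the oestrogen sulfotransferase, did not pass the filter and is named because its values were seen to resemble those of Cyp17a1. It had 162 and 169 counts in Indirubin-2 and Indirubin-3 and 0 in the other 7 libraries.

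Among other dehydrogenases and reductases, 15, 16 and 14 of the 30 in the table were tested and 0 passed in any comparison by edgeR. At an unadjusted p under 0.05 there was 1, Rdh16f2 in DSS against Control, with a log2 fold change of 1.14 (SE 0.47, adjusted p = 0.576). Hsd17b6, an enzyme of androgen catabolism, did not overlap between Indirubin and Control, with a log2 fold change of 0.71 (SE 0.37, adjusted p = 0.423). In the gland cell list, 2 of 12 were tested. Fdxr, the reductase that feeds electrons to mitochondrial P450 enzymes, was at 10.9, 6.34 and 3.90 CPM in Control, 2.61, 2.48 and 4.11 CPM in DSS, and 0.734, 0.819 and 0 CPM in Indirubin. All 3 Indirubin libraries were below all others, with a log2 fold change against Control of −3.75 (SE 0.97, adjusted p = 0.120, edgeR).

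All 8 redox partners and enzymes of cofactor supply were tested and 0 were called by edgeR, with 0, 1 and 2 at an unadjusted p under 0.05. G6pdx, the first enzyme of the pentose phosphate pathway, did not overlap between Indirubin and DSS, with a log2 fold change of 1.36 (SE 0.60, adjusted p = 0.628). Of 11 carriers and nuclear receptors, 6, 8 and 8 were tested and 0 were called, with 1 in each comparison at an unadjusted p under 0.05. Nr0b2, the corepressor SHP, had a log2 fold change of 1.82 in DSS against Control (SE 0.69, adjusted p = 0.477) and −1.46 in Indirubin against DSS (SE 0.63, adjusted p = 0.624). Serpina6, the plasma carrier of glucocorticoid, had counts of 130, 172 and 56 in Control, 90, 100 and 314 in DSS, and 74, 7 and 4 in Indirubin. Its log2 fold change against Control was −2.34 (SE 0.99, adjusted p = 0.314, edgeR).

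For the 5 genes that reached 10 counts in each library, the genes with the most similar course over the 9 libraries were found among 3075 genes of the same kind, by the root mean square difference of centred log2(CPM + 0.5). The nearest to Akr1c6 were Nat8f1 at 0.47, Ces1f at 0.52 and Cyp3a11 at 0.55, beside an SD of 1.75 for Akr1c6 itself. The nearest to Hsd17b2 were Aldh1a1 at 0.18, Haao at 0.23 and Ugt2b35 at 0.24, beside its own SD of 0.77. For Hsd11b1 they were Tmprss6 at 0.16, Lipa at 0.18 and Pgrmc1 at 0.22, beside 0.78. For Akr1d1 they were H2-Ab1 and Nrn1, both at 0.26, and for Hsd17b13 Csf1r at 0.20, against SDs of 0.67 and 0.50. These likenesses describe 9 libraries that share their groups and depths.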

How the data were processed

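RNA from 9 livers (400 ng per library) was sequenced on a DNBSEQ platform and aligned by the authors to the mouse genome, GRCm39 per the labels. The aligner and the counter were not given in the sources used here. The deposited table holds raw counts per gene, and FPKM values that the authors made from them. The FPKM matched count divided by gene length, scaled by a library size of the authors' own, within 0.1% for 100% of values, and were used for that check only. Columns of the authors' fold changes and p-values, and 3 gene lists, were not used.

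Groups followed the sample labels. Each comparison was fitted on its own 6 libraries with edgeR 4.0.16 (TMM scaling, then glmQLFit and glmQLFTest on genes kept by filterByExpr at min.count 10 and min.total.count 15) in R 4.3.3, with Benjamini-Hochberg adjustment over all genes tested and a threshold of 0.05. The SE is the log2 fold change divided by the root of F. Levels use 1 TMM scale over 9 libraries, and RPKM uses the gene length of the table. The script was tested on simulated data. DESeq2 1.42.0, other scales and filters, a replicate block and leaving out each library were tried. The labels do not say whether replicates are separate litters or cages, so p-values measure the spread between these livers. Floors cover counting error only. The members and all gene lists were chosen with earlier results of these data known. All 10 members are named, and of each pathway list up to 2 genes each way with the smallest p. Promoter sequences are from RefSeq on GRCm38.p6 and no coordinates were converted between builds.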

Additional observations from a re-analysis of the deposited data

How the results depend on the processing

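With library size alone as the scale, the median log2 fold change of all genes moved from 0.01, 0.15 and 0.13 to 0.70, 0.43 and 1.11 in DSS against Control, Indirubin against DSS and Indirubin against Control. Counts of all genes called then changed from 53 (16 higher, 37 lower) to 19 (14 higher, 5 lower), from 0 to 2, and from 19 (5 higher, 14 lower) to 266 (249 higher, 17 lower). Relative to those medians Hsd3b5 was still lower in DSS, but it was not called, which left 0 members. Signs turned for Hsd11b1 in DSS against Control (0.26), for Hsd3b2 (0.0145), Hsd17b13 (0.19) and Akr1d1 (0.18) in Indirubin against DSS, and for Hsd17b13 (1.01) and Akr1d1 (0.0766) in Indirubin against Control.

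In the same order of comparisons, all-gene counts were 143, 80 and 316 by DESeq2, 125, 156 and 379 with no filter on low counts, 84, 2 and 72 where each library had to reach 10 counts, and 11, 4 and 56 with all 9 libraries in 1 fit. Members called in DSS against Control fell from 1 to 0 under that stricter filter, which removed Hsd3b5, and with all 9 libraries in 1 fit. Without the filter they were 1 in Indirubin against DSS and 3 in Indirubin against Control (Cyp17a1 higher, Hsd3b3 and Hsd3b5 lower). Under the stricter filter, Akr1d1 turned to 0.0532 in Indirubin against DSS and Hsd17b13 to 0.0377 in Indirubin against Control. Apart from the library size scale, the cause of these changes was not tested.

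Libraries with the same number did not deviate together (correlations from −0.03 to 0.03), and the labels give no pairing. With the replicate number as a block, all-gene counts were 30, 3 and 49, no member's call changed, and Hsd3b2 turned to 0.0336 in Indirubin against DSS.

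Leaving out each library in turn gave 0 to 1, 0 to 2 and 0 to 7 members called, and 12 to 64, 0 to 134 and 1 to 465 genes. The highest counts in both Indirubin comparisons came without Indirubin-1. A group left with 2 libraries was fitted with the spread shared over both groups. Under these fits the log2 fold change in DSS against Control ran from −0.18 to 0.17 for Hsd17b2 and from −0.17 to 0.50 for Hsd17b13. In Indirubin against DSS it ran from −0.77 to 0.75 for Hsd3b2, −5.46 to 0.25 for Hsd3b3, −0.64 to 6.5e-04 for Hsd17b13 and −0.47 to 0.35 for Akr1d1, and in Indirubin against Control from −0.36 to 0.21 for Hsd17b13. Low counts limit the precision for Hsd3b2, Hsd3b3, Hsd3b5, Srd5a1 and Cyp17a1, each at 0 counts in at least 1 library.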
